A study of Mus musculus with 20 samples.

Results

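The 30 genes described here are members of 6 homeobox families, namely *Irx1* to *Irx6*, *Six2* to *Six6*, *Dlx1* to *Dlx6*, *Lhx1* to *Lhx6* with *Lhx8* and *Lhx9*, *Msx1* to *Msx3*, and *Emx1* and *Emx2*. They were chosen by name out of 22022 protein-coding genes with a unique symbol in the NCBIM37 (mm9) annotation. Each gene was taken as a window of the gene body plus 10 kb on each side, and the quantity given is the share of the window under 5-formylcytosine (5fC) peaks in each library. The study mapped 5fC by chemical pull-down in genomic DNA of mouse embryos at E11.5, dissected into hindbrain, heart, liver and carcass (the remainder of the embryo). Wild-type (WT) embryos were set against homozygous *Tdg* null littermates from heterozygote intercrosses, whose *Tdg* allele has the coding sequence of the catalytic domain replaced by a neomycin resistance cassette in every cell. Hindbrain came from 4 litters (A, O, Q and Z), with 1 null and 1 WT embryo each. The remaining tissues were taken from a separate set of embryos, 1 null and 1 WT in each of what the labels give as litters pair_a and pair_b, so that in any comparison of hindbrain with another tissue the tissue and the set of embryos cannot be told apart. The *Tdg* null liver library of pair_b, which the study set aside for poor quality, was kept apart, which left 19 libraries.

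5fC arises when TET enzymes oxidise 5-methylcytosine by way of 5-hydroxymethylcytosine, and thymine DNA glycosylase (TDG) cuts it out, after which base excision repair restores cytosine. Homeobox genes encode DNA-binding factors that give cells their position and type in the embryo. Irx (Iroquois) factors pattern the neural tube, heart and limb, *Six2* and its relatives act in eye, kidney and muscle with Eya partners, Dlx factors in forebrain interneurons, jaw, limb and bone, Lhx (LIM homeobox) factors in neuron classes, pituitary and gonad, Msx factors at sites of epithelial and mesenchymal interaction, and Emx factors in the cerebral cortex. Many of these genes are short, lie in CpG-rich surroundings and are known as targets of Polycomb repression in tissues that do not use them.

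The libraries held between 101344 and 254319 peaks over 2.68% to 8.09% of the ungapped genome in the 9 *Tdg* null libraries, and between 1563 and 42013 peaks in the 10 WT libraries. The files list peak positions only, so the number of reads and the depth behind each library are unknown, and a window without a peak shows only that no peak was called. Within hindbrain, the WT libraries of litters A and Z held 1564 and 1563 peaks while those of O and Q held 8989 and 21606. The part of this spread in the results below was not tested. Peaks do not measure expression, so the tissue labels could not be checked against marker genes, and the *Tdg* window itself, with peaks in all null libraries but 1 among the 9, does not check the genotype. In dissected tissue, fewer cells that carry 5fC at a site and less of it per cell cannot be told apart.

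The windows of the 30 genes were compact and CpG-rich. Their median length was 26.0 kb against 35.5 kb over all protein-coding windows, and flanks made up 65.8% of their bases against 30.8%. They held a median of 20.8 CpGs per kb, where all protein-coding windows held 11.3, and CpG islands made up 7.81% of their bases against 1.18%. Every one of the 30 windows held at least 1 CpG island, as did 68.2% of all protein-coding windows. The windows of *Dlx1* and *Dlx2*, of *Dlx3* and *Dlx4* and of *Dlx5* and *Dlx6* overlap, since these genes lie in pairs, so 27 separate stretches of 885157 bases in total were measured.

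More of the 30 windows held a peak in *Tdg* null than in WT libraries. In null hindbrain 19, 18, 20 and 21 of the 30 windows held a peak (litters A, O, Q and Z), in null carcass 21 and 20, in null heart 22 and 15, and in the null liver library 15. In WT hindbrain the counts were 1, 3, 7 and 1, in WT carcass 11 and 10, in WT liver 2 and 0, and in WT heart 0 in both libraries. Of all protein-coding windows, 71.4% to 76.5% held a peak in the null hindbrain libraries, 71.3% and 76.4% in null carcass, 81.2% and 71.3% in null heart and 63.0% in null liver. In WT these shares were 3.59% to 27.1% in hindbrain, 39.8% and 35.7% in carcass, 30.9% and 5.24% in liver and 12.1% in each heart library. *Dlx2* and *Emx2*, factors of the ventral forebrain and of the cerebral cortex and urogenital tract, had no peak in any of the 19 libraries, which was the case for 10.2% of all protein-coding windows. The plot of cover by library shows these values.

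**Figure D1:**
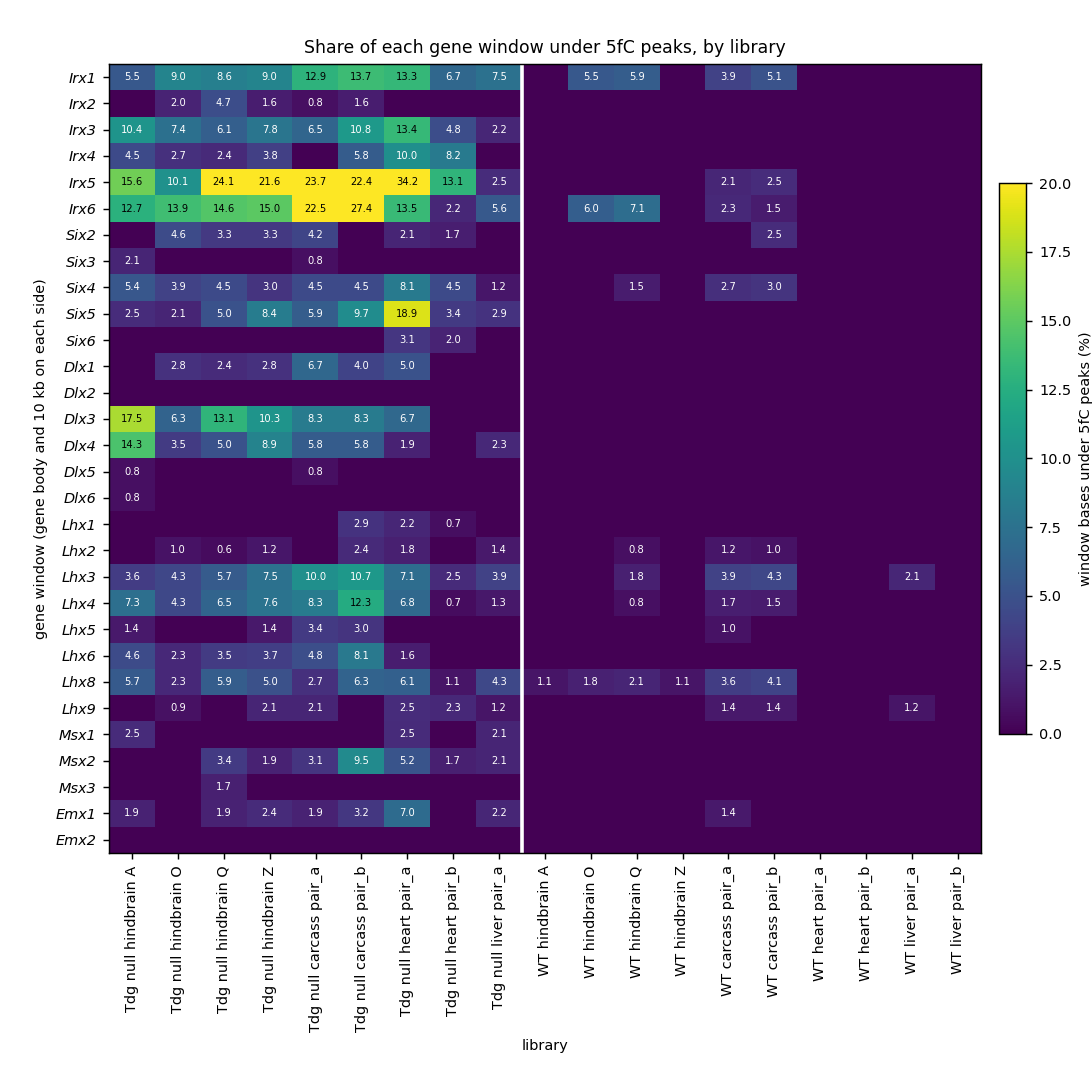
Share of each gene window under 5fC peaks (percent, colour scale capped at 20%) for the 30 genes in rows and the 19 libraries in columns, *Tdg* null to the left of the white line and WT to the right, with the value printed where it is above 0. *Irx5* and *Irx6* hold the highest values, *Dlx2* and *Emx2* are at 0 throughout, and both WT heart columns are empty.

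Relative to each library's own genome cover, the 30 windows together were covered about as much as the genome in null hindbrain and less in the other null tissues. Their joint bases had 1.05, 0.986, 1.11 and 1.12 times the genome cover in null hindbrain, 0.825 and 0.762 times in null carcass, 0.695 and 0.477 times in null heart and 0.487 times in null liver. The joint bases of all protein-coding windows lay above the genome in every null library, at 1.22 to 1.49 times. In WT the 30 windows had 1.48, 2.43, 1.5 and 1.62 times the genome cover in hindbrain, resting on 1, 6, 9 and 1 peaks, where all protein-coding windows had 1.07 to 1.18 times. They had 1.05 and 1.26 times in WT carcass (13 and 14 peaks), 0.390 and 0 times in WT liver and 0 in WT heart. Across genes, the Spearman correlation of CpG density with cover was -0.18 in null hindbrain, -0.18 in null heart and -0.15 in null carcass over the 30 windows. Over all 22022 windows it was 0.59, 0.59 and 0.50. These are descriptions across genes that share libraries, base composition and, for the Dlx pairs, bases.

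No peak of any *Tdg* null library came within 1 kb of the annotated start of any of the 30 genes. Of all protein-coding genes, 49.4% had such a peak in at least 1 of the 9 null libraries, and of the 11878 with a CpG island within 1 kb of the start, to which 28 of the 30 belong, 55.5% did. Within 2 kb the count was 3 of 30, against 64.3%, and within 5 kb 17 of 30, against 77.5%. The nearest peaks lay 1032 bp from the start of *Lhx3*, a pituitary and motor neuron factor, 1393 bp from that of *Six5*, the neighbour of *Dmpk*, and 1788 bp from that of *Irx6*. This pattern was noticed in the data and is given as a description, with no test.

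Around the starts, the null libraries showed a trough over the 30 genes and a peak over all genes. Within 1 kb of the start, 0% of the bases of the 30 genes were covered, while all protein-coding genes had 4.56% ± 0.68 (SD, n = 4) in null hindbrain, 7.68% ± 4.35 (SD, n = 2) in null heart and 7.02% ± 1.57 (SD, n = 2) in null carcass. At 5 kb or more from the start, the 30 genes had 4.14% ± 0.79 in null hindbrain, against 3.29% ± 0.44 over all genes. The corresponding values were 4.48% ± 3.27 and 7.11% ± 3.51 in null heart, and 5.45% ± 0.72 and 5.34% ± 1.27 in null carcass. Within single libraries at this distance, the 30 genes lay above all genes in all 4 null hindbrain libraries, by 0.34 to 1.36 percentage points. They lay below all genes in both null heart libraries (differences of -2.81 and -2.47 points) and on either side in null carcass (0.50 and -0.28).

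**Figure D2:**
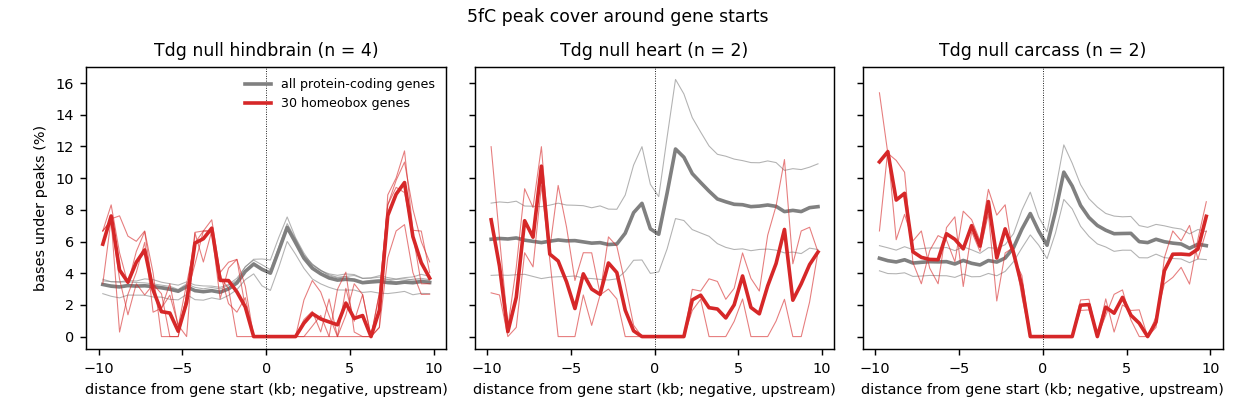
Share of bases under 5fC peaks (percent) in 500 bp bins by distance from the gene start (kb, negative upstream) in *Tdg* null hindbrain, heart and carcass, thin lines for single libraries and thick lines for their mean. The 30 homeobox genes are at 0% on both sides of the start, where all protein-coding genes rise.

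The stretch without any null peak around the start had a median of 19.1 kb over the 30 genes, from 5.8 to 41.4 kb, against a median of 6.6 kb over all protein-coding genes. It held the whole gene body for 13 of the 30 genes, against 24.7% of all protein-coding genes. That count also depends on body length, and flanks made up 65.8% of the bases of the 30 windows against 30.8%. The longest such stretch, 41.4 kb with 1009 CpGs and 4 CpG islands, covered both *Dlx1* and *Dlx2*, which act together in forebrain interneurons. It was 35.1 kb around *Lhx1*, a factor of head organiser and kidney, 34.8 kb around *Dlx6* and 34.5 kb around *Six6*, a factor of eye and pituitary. The shortest were 5.8 kb at *Irx2*, 6.9 kb at *Irx4* and 7.4 kb at *Irx3*.

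Peaks in these windows lay mostly outside the gene bodies and outside CpG islands. Flanks held 84.1% ± 2.5 (SD, n = 4) of the covered bases in null hindbrain, 86.6% ± 1.4 (SD, n = 2) in null heart and 86.2% ± 0.2 (SD, n = 2) in null carcass. Over all protein-coding windows flanks held 25.7%, 24.9% and 22.1% of covered bases, but those windows also have a smaller share of flank. Compared per base, gene bodies of the 30 genes were covered to 1.73% ± 0.50 and their flanks to 4.66% ± 0.79 in null hindbrain, whereas over all protein-coding windows bodies (4.45% ± 0.59) were covered more than flanks (3.46% ± 0.46). CpG island bases of the 30 windows were covered to 0.352% ± 0.348 in null hindbrain and other bases to 3.94% ± 0.72, while over all windows the values were 3.02% ± 0.76 and 4.16% ± 0.55. *Six4*, which acts in muscle precursors, and *Lhx4*, which acts in pituitary and motor neurons, were the members with a peak inside the body in 8 of the 9 null libraries.

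In null hindbrain, *Irx5* and *Irx6* had the highest mean cover, followed by *Dlx3*, *Irx1*, *Dlx4* and *Irx3*, while *Irx4* and *Irx2* lay lower. *Irx3*, *Irx5* and *Irx6* form a cluster on chromosome 8, and *Irx1*, *Irx2* and *Irx4* one on chromosome 13. The sequences shown next are the central 300 bases (NCBIM37, plus strand, CpGs in capitals) of the longest stretch under peaks of all 4 null hindbrain libraries for *Irx5*, *Irx6* and *Irx1*, so that the DNA behind the highest values can be seen. The *Irx5* stretch, chr8:94877201-94877900, lies 4145 bp upstream of the gene in the annotated body of *4933436C20Rik* but in none of its exons, and holds 12 CpGs in 700 bp. The *Irx6* stretch, chr8:95194001-95195200, lies 3588 bp upstream in no annotated gene and holds 26 CpGs in 1200 bp. The *Irx1* stretch, chr13:72088801-72090200, lies 11671 bp from the start, downstream of the gene, and holds 24 CpGs in 1400 bp. None of the 3 overlaps a CpG island, exon or UTR.
Irx5 upstream: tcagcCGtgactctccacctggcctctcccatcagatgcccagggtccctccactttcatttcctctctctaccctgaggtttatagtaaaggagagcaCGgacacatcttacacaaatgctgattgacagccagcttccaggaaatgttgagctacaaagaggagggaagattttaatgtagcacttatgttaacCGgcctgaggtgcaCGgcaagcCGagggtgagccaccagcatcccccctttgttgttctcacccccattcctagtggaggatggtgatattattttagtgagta
Irx6 upstream: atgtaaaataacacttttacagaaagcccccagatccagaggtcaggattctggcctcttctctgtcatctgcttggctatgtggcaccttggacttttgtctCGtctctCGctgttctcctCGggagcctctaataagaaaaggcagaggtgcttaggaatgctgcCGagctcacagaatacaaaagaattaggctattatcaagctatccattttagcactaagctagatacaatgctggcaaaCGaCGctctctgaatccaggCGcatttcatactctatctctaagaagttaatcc
Irx1 downstream: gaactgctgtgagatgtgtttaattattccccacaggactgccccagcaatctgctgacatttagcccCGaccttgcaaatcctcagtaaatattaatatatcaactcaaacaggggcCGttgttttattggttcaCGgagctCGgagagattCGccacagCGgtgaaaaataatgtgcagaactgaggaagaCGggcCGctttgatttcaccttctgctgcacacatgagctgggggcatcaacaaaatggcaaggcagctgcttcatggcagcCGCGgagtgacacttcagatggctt

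*Irx5*, which acts in heart repolarisation and retina, had 15.6%, 10.1%, 24.1% and 21.6% of its window covered in null hindbrain, 23.7% and 22.4% in null carcass, 34.2% and 13.1% in null heart and 2.54% in null liver (here and below hindbrain in the order A, O, Q, Z and other tissues pair_a before pair_b). All null values except that of liver lay far above the WT ones, which were 2.11% and 2.54% in carcass and 0 elsewhere. *Irx6*, its neighbour, had 12.7%, 13.9%, 14.6% and 15% in null hindbrain, 22.5% and 27.4% in null carcass, 13.5% and 2.25% in null heart and 5.62% in null liver. The WT libraries of *Irx6* held 6.0% and 7.12% in hindbrain of litters O and Q, 2.30% and 1.55% in carcass and 0 elsewhere, so the groups did not overlap in hindbrain or carcass. *Irx3*, a neural and cardiac conduction factor, had 10.4%, 7.35%, 6.05% and 7.78% in null hindbrain, 6.49% and 10.8% in null carcass, 13.4% and 4.76% in null heart and 2.16% in null liver, with no peak in any WT library.

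*Irx1*, expressed in neural tube, lung and limb, had 5.49%, 9.02%, 8.63% and 9.02% in null hindbrain, 12.9% and 13.7% in null carcass, 13.3% and 6.67% in null heart and 7.45% in null liver. WT hindbrain of litters O and Q had 5.49% and 5.88%, so null and WT hindbrain overlapped, and WT carcass had 3.92% and 5.10%. The downstream stretch printed above was under peaks in these 4 WT libraries too. *Irx4*, a factor of the ventricular myocardium, had 9.96% and 8.24% in null heart, its highest values, against 4.46%, 2.75%, 2.40% and 3.78% in null hindbrain and 0% and 5.84% in null carcass. Relative to each library's genome cover, it had 1.23 and 2.26 times in null heart and up to 1.24 times in null hindbrain. *Irx2* stayed between 0% and 4.72% in null libraries, with no peak in null heart or in WT.

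Among the Dlx genes, *Dlx3* and *Dlx4* had the most cover in null hindbrain, *Dlx1* less, and *Dlx2*, *Dlx5* and *Dlx6* little or none. *Dlx3*, a factor of placenta, skin and bone, had 17.5%, 6.35%, 13.1% and 10.3% in null hindbrain, 8.33% in both null carcass libraries, 6.74% and 0% in null heart and 0% in null liver. *Dlx4*, next to it on chromosome 11, had 14.3%, 3.49%, 5.04% and 8.91% in null hindbrain, 5.81% in both null carcass libraries, 1.94% and 0% in null heart and 2.32% in null liver. Neither had a peak in a WT library. Their windows overlap, and the longest stretch under all 4 null hindbrain libraries, chr11:94995101-94996000, lies between them, downstream of both genes, and counts for both. *Dlx1* reached 6.69% in null carcass, while *Dlx5* and *Dlx6*, paired genes of jaw and limb, held at most 0.824% in any library and *Dlx2* held none.

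In the remaining families no gene had a null hindbrain mean above 6.42%, that of *Lhx4*. Among *Six2* to *Six6*, *Six5* had 2.52%, 2.10%, 5.04% and 8.4% in null hindbrain and 18.9% and 3.39% in null heart, and *Six4* 3.02% to 5.43% in null hindbrain, whereas *Six3*, a forebrain and eye factor, had 2.09% in null hindbrain A, 0.785% in null carcass pair_a and no other peak. *Six2*, a factor of nephron progenitors, had a mean of 2.81% ± 1.97 in null hindbrain. Among the Lhx genes the null hindbrain means were 6.42% ± 1.49 for *Lhx4*, 5.26% ± 1.73 for *Lhx3*, 4.71% ± 1.66 for *Lhx8*, 3.51% ± 0.95 for *Lhx6*, and under 1% for *Lhx2*, *Lhx5* and *Lhx9* (all SD, n = 4). Neighbours in this order, down to *Lhx6*, differed by less than the larger of their SDs. *Lhx1* had no peak in null hindbrain or liver, and 0% and 2.91% in null carcass and 2.19% and 0.729% in null heart. *Msx1* and *Msx3*, of jaw and dorsal neural tube, had a peak in 3 and 1 null libraries. *Msx2*, of skull and limb, had 0%, 0%, 3.44% and 1.91% in null hindbrain, 3.05% and 9.54% in null carcass, 5.16% and 1.72% in null heart and 2.10% in null liver. *Emx1* had a null hindbrain mean of 1.55% ± 1.07.

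In hindbrain, cover in *Tdg* null embryos was called higher than in WT littermates for most of the members tested, and for 91.2% of all windows tested. Among the members *Irx5*, *Dlx3*, *Irx3* and *Dlx4* were at the top, followed by *Lhx4*. The difference in log2(percent covered + 1), null minus WT, was 4.17 ± 0.26 (SE) for *Irx5*, 3.60 ± 0.26 for *Dlx3*, 3.13 ± 0.16 for *Irx3* and 3.0 ± 0.35 for *Dlx4*. In all 4 of these genes the WT hindbrain libraries had no peak, so they were tested only through null peaks, the sizes depend on the added 1, and the values are a description. *Lhx4*, with a WT peak in litter Q alone, had 2.65 ± 0.25. Just 3 members passed the filter on WT libraries alone, and all 3 rose, where 94.2% of the 3035 such windows were called. They were *Irx6* (2.45 ± 0.76, limma adjusted p = 0.0137), *Irx1* (1.78 ± 0.70, adjusted p = 0.0378) and *Lhx8* (1.14 ± 0.27, adjusted p = 0.00340). Null and WT hindbrain libraries overlapped in *Irx1*, and not in *Irx6* or *Lhx8*.

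In all, 17 of the 21 members tested were higher in null hindbrain at an adjusted p of 0.05, where the same test called 91.2% of the 17260 protein-coding windows tested. These were all 6 Irx genes, *Six2*, *Six4*, *Six5*, *Dlx1*, *Dlx3*, *Dlx4*, *Lhx3*, *Lhx4*, *Lhx6*, *Lhx8* and *Emx1*. *Lhx2* (0.49 ± 0.30, adjusted p = 0.141), *Lhx5* (0.62 ± 0.32, adjusted p = 0.0951), *Lhx9* (0.64 ± 0.35, adjusted p = 0.110) and *Msx2* (0.92 ± 0.48, adjusted p = 0.0938) were tested and not called. The other 9 genes had a peak in fewer than 2 of the 8 libraries and were not tested. The median difference over the 21 members tested was 2.03, against 2.08 over all windows tested, but the other 18 of them passed the filter only with the help of null peaks, so these counts support nothing for them. With an exact permutation test over the 8 libraries in place of limma, 12 of the 21 passed, where that test called 80.8% of the windows.

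Taken window by window without a filter, every null hindbrain library lay above every WT hindbrain library for 12 of the 30 genes, against 63.4% of all 22022 windows. These were *Irx3*, *Irx4*, *Irx5*, *Irx6*, *Six4*, *Six5*, *Dlx3*, *Dlx4*, *Lhx3*, *Lhx4*, *Lhx6* and *Lhx8*. Over the 9 same-tissue pairs of littermates (4 hindbrain, 2 carcass, 2 heart and 1 liver), null exceeded WT in every pair for 8 of the 30 genes, *Irx1*, *Irx3*, *Irx5*, *Irx6*, *Six4*, *Six5*, *Lhx3* and *Lhx4*, against 46.6% of all windows. Both shares were below that of all windows, many of which are longer.

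**Figure D3:**
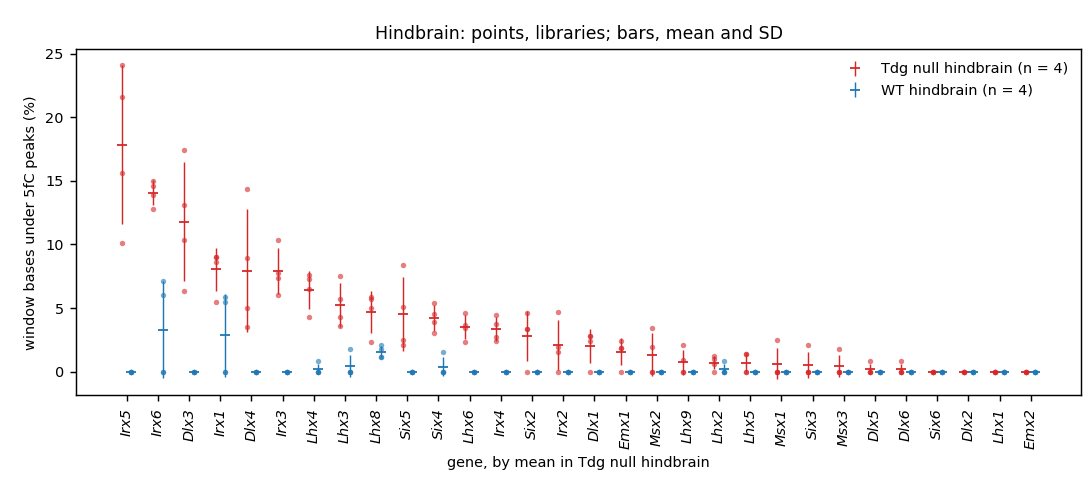
Share of each gene window under 5fC peaks (percent) in *Tdg* null (red) and WT (blue) hindbrain, points for the 4 libraries of each and bars for mean and SD, ordered by the null mean. *Irx5* has the highest null mean (17.9%), and the WT points above 0 belong mostly to *Irx6*, *Irx1* and *Lhx8*.

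In heart, 13 of the 23 members tested were higher in null embryos, where the test called 81.9% of 18129 windows. They were *Irx1*, *Irx3*, *Irx4*, *Irx5*, *Irx6*, *Six4*, *Six5*, *Six6*, *Lhx3*, *Lhx4*, *Lhx8*, *Lhx9* and *Msx2*, led by *Irx5* (4.48 ± 0.45, adjusted p = 3.57e-04) and *Irx1* (3.39 ± 0.37, adjusted p = 4.12e-04). No Dlx gene was among them: *Dlx3* had 1.48 ± 0.88 (adjusted p = 0.164). WT heart had no peak in these windows, so the sizes depend on the added 1. Of the 9 members with peaks in at least 2 WT libraries of the fit, all in carcass, 8 were called, where 87.1% of 7082 such windows were. The other 5 called members, *Irx3*, *Irx4*, *Six5*, *Six6* and *Msx2*, passed the filter only through null peaks, *Six6* through those of heart alone, and their calls support nothing. Without the null heart library of pair_a 7 of 22 members passed, against 72.0% of all windows, and with litter as a block *Lhx4* did not (adjusted p = 0.0553).

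In carcass, 14 of the 23 members tested were higher in null embryos, where the test called 70.2% of the 18129 windows. They were *Irx1*, *Irx2*, *Irx3*, *Irx5*, *Irx6*, *Six5*, *Dlx1*, *Dlx3*, *Dlx4*, *Lhx3*, *Lhx4*, *Lhx5*, *Lhx6* and *Msx2*. Of the same 9 members with WT peaks, 5 were called, where 74.2% of such windows were: *Irx6* (3.16 ± 0.67, adjusted p = 0.00753), *Irx5* (2.86 ± 0.45, adjusted p = 0.00306), *Lhx4* (2.11 ± 0.70, adjusted p = 0.0341), *Irx1* (1.39 ± 0.37, adjusted p = 0.0155) and *Lhx3* (1.15 ± 0.43, adjusted p = 0.0485). The other 9 called passed the filter only with null peaks and their calls support nothing. The largest differences among these were those of *Irx3* (3.23 ± 0.50) and *Dlx3* (3.22 ± 0.88). *Lhx8* (0.11 ± 0.63, adjusted p = 0.912), *Lhx9* (-0.44 ± 0.52, adjusted p = 0.47) and *Lhx2* (-0.18 ± 0.68, adjusted p = 0.843) had peaks in both WT carcass libraries and were not called. *Six4*, with 2.71% and 3.02% in WT carcass and 4.52% in both null carcass libraries, was not called either. Without the null carcass library of pair_b 6 members passed (44.0% of all windows), without that of pair_a 10 (64.9%), without the WT library of pair_a 9 (53.9%), and with the number of peaks in place of bases 8 (59.1%). *Lhx3* was not called with litter as a block (adjusted p = 0.0706). Whether the genotype difference itself differs between tissues was not tested.

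*Lhx8*, a factor of cholinergic neurons of the ventral forebrain, was the member that carried peaks most often without loss of *Tdg*, with a peak in 6 of the 10 WT libraries. All 4 WT hindbrain libraries had one (1.13%, 1.80%, 2.06% and 1.13% of the window), and it was the sole member with a peak in litters A and Z. WT carcass had 3.64% and 4.06%, and WT heart and liver none. Null values were 5.67%, 2.29%, 5.90% and 4.99% in hindbrain, 2.74% and 6.35% in carcass, 6.12% and 1.13% in heart and 4.32% in liver. The null values exceeded the WT ones in all 4 hindbrain libraries but overlapped them in carcass. The WT hindbrain peaks met at chr3:154002601-154003200, 9285 bp upstream of the start in no annotated gene, a stretch of 15 CpGs in 600 bp that was also covered in null hindbrain, null and WT carcass and null liver, and not in WT heart or WT liver. Null hindbrain and null heart were used to choose this stretch, as the longest under peaks of every library of the former and none of the latter, so its absence from null heart is no separate finding. Its central 300 bases are printed because it was the one stretch shared by all WT hindbrain libraries among those described here.
Lhx8 upstream: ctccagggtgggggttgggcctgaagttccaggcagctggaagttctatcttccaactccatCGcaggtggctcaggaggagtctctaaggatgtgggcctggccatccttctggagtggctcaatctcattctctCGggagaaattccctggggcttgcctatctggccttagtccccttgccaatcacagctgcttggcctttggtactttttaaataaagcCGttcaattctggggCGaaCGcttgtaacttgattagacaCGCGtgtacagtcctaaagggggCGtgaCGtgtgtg

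Between null tissues, cover was divided by each library's genome cover, which ran from 2.68% to 8.09%, and compared as log2(fold + 0.25). In hindbrain against heart, *Dlx3*, *Dlx4*, *Lhx6*, *Irx6*, *Lhx4* and *Lhx8* were higher in hindbrain and *Six6* was called higher in heart. These are 6 of the 26 members tested higher, where the test called 11.9% of 18675 windows, and 1 lower, where it called 19.8%. Without the null heart library of pair_b it called 4.47% of windows higher and 4.0% lower, and 4 and 0 members. Over all windows the median difference was -0.18, and over the 26 members tested 0.42. *Dlx3* had folds of 4.85, 2.37, 3.72 and 2.81 in null hindbrain and 0.833 and 0 in null heart, a difference of 2.78 ± 0.54 (SE, limma adjusted p = 0.00869). *Dlx4* had 3.99, 1.30, 1.43 and 2.43 against 0.239 and 0 (2.74 ± 0.46, adjusted p = 0.00524), though without the null heart library of pair_b the adjusted p was 0.0545. In both genes every hindbrain library lay above both heart libraries. The windows of *Dlx3* and *Dlx4* overlap and share a stretch under peaks, so these calls are not independent. The count of 6 is therefore not one of separate loci.

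*Lhx6*, which guides interneurons of the cortex, had folds of 1.28, 0.860, 0.980 and 1.0 in null hindbrain against 0.199 and 0 in null heart, a difference of 1.92 ± 0.30 (adjusted p = 0.00405). *Irx6* had 3.55, 5.19, 4.15 and 4.09 against 1.67 and 0.618 (1.79 ± 0.30, adjusted p = 0.00532). *Lhx4* had 2.03, 1.61, 1.84 and 2.08 against 0.840 and 0.182 (1.63 ± 0.34, adjusted p = 0.0106). The groups did not overlap in any of these genes, nor in *Irx3*, *Lhx3* and *Lhx8*. Heart lay above hindbrain throughout in *Six6* and *Lhx1*. The share of all windows without overlap was not counted. *Lhx8* was close to the threshold (1.08 ± 0.34, adjusted p = 0.0478) and lost it under 9 alternatives, among them leaving out the null heart library of pair_b (adjusted p = 0.297) or the null hindbrain library of A, Q or Z (adjusted p between 0.0858 and 0.103). Without division by genome cover *Dlx4* and *Lhx6* passed and the other 4 did not.

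*Six6* went the other way. It had 3.15% and 2.00% of its window covered in the null heart libraries, folds of 0.389 and 0.550, and no peak in any of the other 17 libraries. It passed the filter only through those heart peaks and its difference is set by the added 0.25, so its values are given as a description and its call supports nothing. Without either heart library the window was not tested. The *Irx5* window, with folds of 3.79 to 6.84 in null hindbrain and 3.60 and 4.23 in null heart, did not differ beyond its spread (0.36 ± 0.26, adjusted p = 0.315).

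For each gene called higher in null hindbrain than in null heart, the longest stretch under all null hindbrain and no null heart peaks was located, and that of *Lhx4* was the one inside a gene body. The stretch between *Dlx3* and *Dlx4* (16 CpGs in 900 bp) and the longest one of *Lhx6*, chr2:35969901-35970300, 9172 bp upstream of its start (6 CpGs in 400 bp), were under peaks in all 4 null hindbrain and both null carcass libraries and in no heart, liver or WT library. The longest stretch of *Lhx4*, chr1:157551101-157551400, lies in an intron of the gene and had the same pattern. That of *Irx6*, chr8:95205101-95205600, begins just past the end of the gene and was also under WT hindbrain peaks of O and Q. They were chosen for this pattern, so it is no separate finding for hindbrain and heart, while carcass was not used to choose them. Central sequences are printed for the 2 stretches that separate null hindbrain and null heart without any WT peak in the genes with the largest differences.
Dlx3-Dlx4 between the genes: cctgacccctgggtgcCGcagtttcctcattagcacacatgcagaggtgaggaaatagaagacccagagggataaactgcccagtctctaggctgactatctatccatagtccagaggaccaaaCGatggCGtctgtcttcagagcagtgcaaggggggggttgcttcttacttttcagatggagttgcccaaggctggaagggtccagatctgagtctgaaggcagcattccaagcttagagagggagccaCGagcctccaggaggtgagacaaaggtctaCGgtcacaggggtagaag
Lhx6 upstream: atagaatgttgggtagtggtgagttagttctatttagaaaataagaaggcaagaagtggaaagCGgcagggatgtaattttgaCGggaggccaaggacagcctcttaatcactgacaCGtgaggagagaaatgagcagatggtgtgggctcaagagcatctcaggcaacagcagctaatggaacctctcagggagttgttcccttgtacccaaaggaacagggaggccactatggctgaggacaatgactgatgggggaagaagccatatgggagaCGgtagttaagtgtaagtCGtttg

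**Figure D4:**
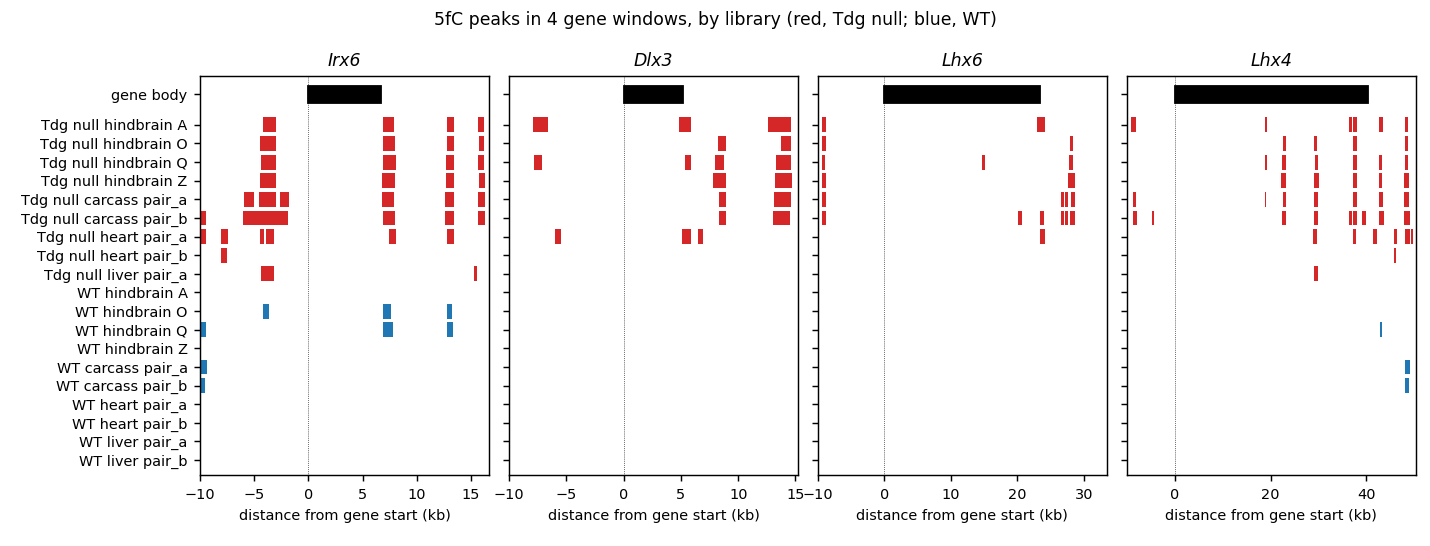
Positions of 5fC peaks in the windows of *Irx6*, *Dlx3*, *Lhx6* and *Lhx4* by distance from the gene start (kb), 1 row for each of the 19 libraries, *Tdg* null red and WT blue, with the gene body in black. The first kb on each side of the start is empty in all rows, null hindbrain and null carcass share positions downstream of *Irx6* and *Dlx3*, upstream of *Lhx6* and in the body of *Lhx4*.

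In hindbrain against carcass no member passed the test, where it called 5.35% of 18675 windows higher and 1.44% lower. At an unadjusted p of 0.05, 3 of the 26 members tested passed in either direction, where 25.5% of all windows did. The largest differences, hindbrain minus carcass, were those of *Irx4* (1.28 ± 0.54, adjusted p = 0.185), *Dlx3* (1.20 ± 0.54, adjusted p = 0.215), *Msx2* (-1.17 ± 0.70, adjusted p = 0.335) and *Dlx4* (1.0 ± 0.46, adjusted p = 0.220). Both carcass folds lay below all hindbrain ones in *Dlx3* (1.55 and 1.10), *Dlx4*, *Irx3* and *Lhx8*, and above all of them in *Lhx5*. The share of all windows without overlap was not counted. The balance of these calls depends on the scaling: over all windows 1000 were higher and 268 lower, 446 and 840 with division by the median over windows, and 73 and 215 without division. No member passed under either. Without the null carcass library of pair_a the test called 0 windows in either direction, without that of pair_b 163 higher and 17 lower. A p above the threshold does not show that these tissues are alike.

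In heart against carcass, which come from the same embryos, *Irx4* was higher in heart (1.93 ± 0.62, adjusted p = 0.0495). With *Six6*, again tested only through its heart peaks, 2 of the 26 members tested were called higher, where the test called 22.7% of windows. *Lhx6* (-1.87 ± 0.35, adjusted p = 0.00864), *Irx6* (-1.68 ± 0.35, adjusted p = 0.0122), *Dlx4* (-1.73 ± 0.53, adjusted p = 0.0437) and *Lhx4* (-1.42 ± 0.39, adjusted p = 0.0308) were lower in heart, 4 of 26 where it called 7.26%. The median over the 26 members tested was -0.27 and over all windows 0.38. *Irx4* had folds of 1.23 and 2.26 in null heart and 0 and 0.773 in null carcass, and was not called in 11 of the alternatives, each left-out heart library (adjusted p = 0.0670 and 0.226) and null carcass pair_a (adjusted p = 0.196) among them. With the embryo as a random block, *Irx4* (adjusted p = 0.0586) and *Dlx4* (adjusted p = 0.0504) were not called. Leaving out 1 library at a time, with 5.14% to 17.3% of windows called higher and 1.64% to 9.62% lower, gave 0 to 3 members higher and 1 to 5 lower, with 0 higher without either null heart library, 1 lower without null carcass pair_a, and 2 lower without null carcass pair_b or null heart pair_b. The fold plot sets the null tissues side by side, and the 3 comparisons share libraries and are not independent.

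**Figure D5:**
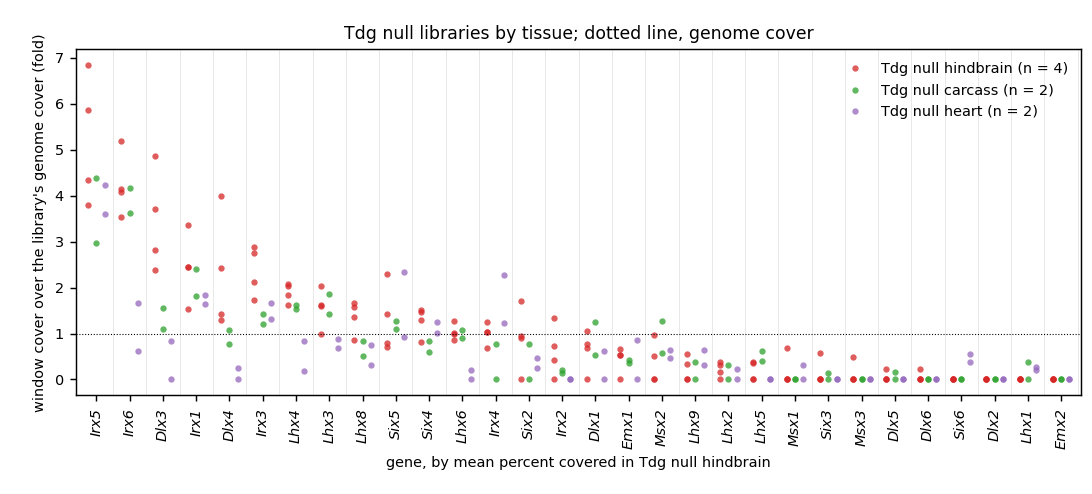
Window cover divided by the library's genome cover (fold) for the 30 genes in *Tdg* null hindbrain (red, n = 4), carcass (green, n = 2) and heart (purple, n = 2), each point 1 library, with the genome cover as the dotted line at 1. *Irx1*, *Irx3* and *Irx5* are above 1 in all 8 libraries. For *Dlx3*, *Dlx4*, *Irx3*, *Irx6*, *Lhx3*, *Lhx4*, *Lhx6* and *Lhx8* all hindbrain points lie above the heart points, and the reverse holds for *Six6* and *Lhx1*.

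Other homeobox genes and the partners of these factors were counted in the same tests. Of 44 other homeobox genes listed, 41 were annotated by that symbol. Among them 25 of 28 tested were higher in null hindbrain than in WT, where the share over all windows was 91.2%, 17 of 29 in null heart (81.9% over all) and 16 of 29 in null carcass (70.2% over all). Null hindbrain against null heart called 12 of 33 higher and 2 lower (11.9% and 19.8% over all), hindbrain against carcass 2 higher and 0 lower (5.35% and 1.44%) and heart against carcass 1 higher and 10 lower (22.7% and 7.26%). Of 14 partners (the Eya and Dach cofactors of *Six2* and its relatives and the Ldb, Lmo and Ssbp cofactors of LIM proteins), 13 were higher in each of null hindbrain, heart and carcass, against the same shares over all windows. Windows of both lists could pass the filter through null peaks alone, and no filter on WT libraries was applied to them. Their counts of null against WT are therefore a description. Null hindbrain against null heart called 6 of the 14 higher and 1 lower, hindbrain against carcass none, and heart against carcass 1 higher and 7 lower. Without the null heart library of pair_a the other homeobox genes gave 11 in heart, and without that of pair_b, hindbrain against heart called 7 of them and 2 partners in either direction. For heart against carcass, they gave 5 to 7 without any 1 null library of these tissues, and for hindbrain against carcass 0.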

How the data were processed

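Genomic DNA pull-down libraries of 20 embryonic tissue samples were analysed, in 4 tissues and 2 genotypes. According to the methods, the authors trimmed reads with Trim Galore, aligned them to NCBIM37 with Bowtie2 and called peaks in each library with MACS within SeqMonk (p cutoff 1e-05, fragment size 200 bp). The files deposited by the authors hold peak start and end positions on a 100 bp grid, with no height, score or read number, so the depth is unknown and no interval for counting error could be given. Such peaks follow depth and enrichment as well as 5fC, and library totals differ widely.

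Genes came from GENCODE vM1 on NCBIM37 (21 chromosomes). Symbols shared by several genes were dropped. CpG islands were called from the genome (at least 200 bp, GC content of at least 50%, observed over expected CpG above 0.6). Genotypes were compared with limma (lmFit and eBayes with trend) on log2(percent covered + 1), hindbrain alone and heart with carcass in 1 fit of 8 libraries. *Tdg* null tissues were compared on log2(fold over genome cover + 0.25) over 8 libraries. Windows needed a peak in at least 2 libraries of the fit, and p-values were adjusted by Benjamini-Hochberg over all protein-coding windows. Null liver, with 1 library, was not tested. The fit was run on simulated normal values without a floor. This cannot show how it performs on windows that lack a peak in many libraries. Genes with values in every library were the 6 highest and 4 lowest in null hindbrain, those called between tissues (or the 4 largest differences) and those with peaks in at least 5 WT libraries. The 30 genes and the lists were chosen with earlier results of these data known. The labels put null and WT embryos in litters, so litter was tried as a block. Deviations of littermates from their group means correlated between -0.07 and 0.07 in hindbrain, at -0.09 in heart and -0.10 in carcass. Other alternatives were pseudocounts, filters, scalings, gene bodies alone, peaks of at least 600 bp, peak numbers, all annotated genes, no variance trend, an exact permutation test and leaving out each library. The sequences were read from NCBIM37. Python 3.11.15, pandas 2.3.3, numpy 2.4.6, R 4.3.3 and limma 3.58.1 were used.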

Additional observations from a re-analysis of the deposited data

Results flagged for a closer look

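In 11 of 60 sets of 4 hindbrain libraries (30 genes in each genotype), 1 library stood apart from the other 3 by its gap relative to the range. For continuous values chance gives about 1 such set in 20, which is not the rate here: in 9 of the 11 sets 1 library had a peak and the other 3 had none, and any such set stands apart by construction. The null library of litter A stood apart for *Irx1* (5.49%, the lowest) and *Dlx1* (0%, the lowest), and for *Dlx5* (0.824%), *Dlx6* (0.793%), *Msx1* (2.49%) and *Six3* (2.09%), where it alone had a peak. The null library of litter Q alone had a peak for *Msx3* (1.74%). The WT library of litter Q, with the most peaks among WT hindbrain libraries, alone had a peak for *Lhx2* (0.793%), *Lhx3* (1.78%), *Lhx4* (0.83%) and *Six4* (1.51%).

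The *Tdg* null liver library of pair_b, which no comparison used, held 1 peak in these windows, over 0.787% of that of *Irx2*, where the WT liver libraries had none.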

How the results depend on the processing

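No called difference of a single gene changed direction under any alternative run. With the gene body alone, 2 of 5, 3 of 8 and 2 of 8 members tested were higher in null hindbrain, heart and carcass (86.9%, 76.2% and 60.2% of all windows) and 1 lower in carcass, and of 13 tested 1 was higher and 1 lower in hindbrain than heart (10.9% and 21.1%) and 1 higher and 1 lower in heart than carcass (20.5% and 6.37%). Members with a body peak numbered 15, 12, 8 and 5 in null hindbrain, heart, carcass and liver and 1, 3 and 0 in WT hindbrain, carcass and liver. These counts pool the libraries of a group, which differ in number, so they do not rank the tissues. Single null libraries held 2 to 9 in hindbrain, 11 and 4 in heart and 7 and 5 in carcass. The share of all genes with a body peak was not counted. The number of peaks gave 8 members higher in null carcass (59.1% of windows). Peaks of at least 600 bp gave of 22 tested 1 higher and 1 lower in hindbrain against carcass (3.38% and 3.02% of windows), 0 higher in heart against carcass (17.7%), 3 members with a peak in WT hindbrain and 1 in WT liver, and flank shares of 86.9% in null hindbrain and 88.1% in null carcass. With stricter CpG islands the island share of covered bases fell from 0.274% to 0% in null carcass, 0.892% to 0% in heart, 2.40% to 0% in liver and 0.699% to 0.141% in hindbrain. Cover not divided by genome cover gave 2 higher in hindbrain than heart (2.98% of windows), and 1 higher and 2 lower in heart than carcass (8.02% and 3.39%). Division by the median over windows gave 1 and 7 there (9.38% and 13.7%), no filter 1 and 2 (16.5% and 5.5%), and a pseudocount of 0.1, all annotated genes, no variance trend and the embryo as a random replicate block 1 higher each (19.2% to 21.8%). Over all windows, hindbrain against carcass gave 1000 higher and 268 lower, 73 and 215 with cover not divided, and 446 and 840 with division by the median. The median of all windows there moved from 0.20 to -0.46 and -0.12. Hindbrain against heart gave 2227 higher and 3693 lower, 557 and 5228 not divided, and 2330 and 2617 with the median, and heart against carcass 4239 and 1355, 1497 and 633, and 1751 and 2564.

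Litter as a replicate block gave 17, 12 and 13 members higher in null hindbrain, heart and carcass and changed no call other than *Lhx4* and *Lhx3*. Litters crossed between genotypes, tried after seeing the data, gave 12 in heart and 13 in carcass.

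Here and below, counts of the lists take both directions together, so a shift between higher and lower calls is not seen in them. With the gene body alone, 14 of 14 other homeobox genes tested were called in hindbrain and 10 of 15 in carcass, beside the window shares above. For hindbrain against heart they gave 9 of 33 with cover not divided, 7 of 15 with the gene body alone and 8 of 27 with longer peaks, and for hindbrain against carcass 0 with cover not divided, a pseudocount of 0.1 or no filter, and 1 with the gene body alone or all annotated genes. For heart against carcass they gave 7 of 33 with cover not divided and 5 of 15 with the gene body alone. Of 14 partners, those called were 3 and 4 with cover not divided in hindbrain and carcass each against heart, and 4 with division by the median and 1 with longer peaks for hindbrain against carcass.

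Leaving out 1 library gave 16 to 18 members higher in null hindbrain, 7 to 15 in heart and 6 to 10 in carcass (0 to 1 lower), 4 to 7 higher and 0 to 1 lower in hindbrain than heart, and 0 to 3 higher and 1 to 5 lower in heart than carcass. It left 3 to 7 members with a peak in WT hindbrain, 3 without litter Q, and 0 to 2 in WT liver, 0 without pair_a. Of 25 to 33 other homeobox genes tested, 11 to 18 were called in heart (72.0% to 88.7% of windows), 7 to 15 for hindbrain against heart, 0 to 0 for hindbrain against carcass and 5 to 7 for heart against carcass, and 2 to 8 and 5 to 8 of 14 partners for hindbrain against heart and heart against carcass. In hindbrain against heart 4.47% to 13.2% of windows were then higher. The lowest counts came without null heart pair_a for heart (7), and without null carcass pair_b for carcass (6). With 1 heart or carcass library left, it is assumed to vary like the others. Depth is not known, so a missing peak cannot be told from a shallow library.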
